A study of Mus musculus with 44 samples.

Results

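Potassium channel genes were examined for DNA methylation in blood, hippocampus and frontal cortex of mice given lipopolysaccharide (LPS) after a chemical exposure used as a model of Gulf War Illness. The set held every autosomal protein-coding RefSeq gene whose symbol begins with Kcn. It came to 92 genes of 21900 protein-coding genes, and 2 further Kcn genes lie on the X chromosome and were left out. A gene's level was the mean percent methylation of the cytosines between 1000 bp before and 1000 bp after its span, and a gene needed at least 3 measured cytosines. Between 86 and 90 of the 92 genes met that in each of the 9 deposited tables, 90 met it in at least 1 table, and 84 met it on the 913806 cytosines that all 9 tables hold. On those shared cytosines the 84 genes had from 3 to 167 cytosines each, with a median of 59. The windows of 23 of the 92 genes also overlap another protein-coding gene. All of the small Kcnmb1, for example, lies inside Kcnip1.

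The animals were adult male wild-type C57BL/6J mice, 8 to 12 weeks of age when obtained, and every group received the same pretreatment, the saline groups included. Corticosterone was given in the drinking water at 200 mg/L, dissolved with 0.6% ethanol, in 7-day courses, and on day 8 the mice were injected intraperitoneally with diisopropyl fluorophosphate (DFP, 4 mg/kg), an organophosphate that inhibits acetylcholinesterase and stands in for sarin. At 5 weeks they were given saline or subcutaneous LPS (0.5 mg/kg), a bacterial cell wall component that sets off an inflammatory response. Tissue was taken 6, 12 or 24 h after LPS and 6 h after saline, so the 12 h and 24 h groups were set against saline mice of the 6 h time. There was no group without corticosterone and DFP among the groups used here. The assay was RRBS, reduced representation bisulfite sequencing, which reads cytosines near the CCGG sites cut by MspI. The 44 libraries were split as follows. Blood had 4 saline libraries and 4, 3 and 3 libraries at 6, 12 and 24 h of LPS. Hippocampus had 3 saline and 4, 3 and 4 LPS libraries, and frontal cortex had 4 libraries in each of its 4 groups. The depth of each value is unknown, since the tables give percentages and no read counts. The labels do not say that each library came from a separate animal. If some did not, the p-values measure only the spread between these libraries, which may be technical.

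Potassium channels let potassium leave or enter cells along its gradient and so set the resting potential and end action potentials. The voltage-gated alpha subunits (Kcna to Kcnd, Kcnh, Kcnq) open on depolarisation, and the silent subunits (Kcnf, Kcng, Kcns, Kcnv) only work when assembled with other alpha subunits. The inward rectifiers (Kcnj) and two-pore channels (Kcnk) carry resting and leak currents, and the Kcnma, Kcnn and Kcnt channels open on intracellular calcium or sodium. Auxiliary proteins (Kcnab, Kcne, Kcnip, Kcnmb) change how the alpha subunits are gated or trafficked. Most of these genes are best known from neurons and heart, but Kcna3 and Kcnn4 are the main potassium channels of lymphocytes and sustain their calcium entry, and Kcnk13 and Kcnk6 are known in microglia and macrophages. DNA methylation at gene starts rich in CG pairs is usually low in all tissues, and methylation within genes is usually high.

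RRBS sees a gene start only where the sequence carries CCGG and CG pairs, and the sequences of 3 gene starts show the range. Each is a stretch of 280 bases ending at or just past a transcription start (RefSeq, GRCm38.p6), written in the direction of the gene. Capitals mark the CG pairs at which a cytosine was measured. The Kcna3 stretch (chr3:107035912-107036191, + strand) is dense in CG pairs, with 32 of 35 measured, and was nearly free of methylation in every group. The Kcnip3 stretch (chr2:127522065-127522344, - strand) has 7 CG pairs, 5 of them measured, and is the gene start called at all 3 times in blood after LPS. The Kcnk18 stretch (chr19:59219398-59219677, + strand) has 6 CG pairs, 3 of them measured in the blood 24 h table, and its 300 bp start window was at 73.7% ± 3.0 there in saline blood and 84.8% ± 8.8 after LPS (SD, n = 4 and 3, groups overlapping, adjusted p = 0.046, limma). The 3 were chosen after their values were seen.
Kcna3: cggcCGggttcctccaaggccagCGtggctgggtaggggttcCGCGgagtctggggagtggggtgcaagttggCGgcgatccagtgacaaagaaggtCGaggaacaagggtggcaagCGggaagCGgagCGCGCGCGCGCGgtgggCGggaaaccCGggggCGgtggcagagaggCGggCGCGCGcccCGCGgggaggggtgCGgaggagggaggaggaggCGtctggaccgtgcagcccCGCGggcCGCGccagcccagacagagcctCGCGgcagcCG
Kcnip3: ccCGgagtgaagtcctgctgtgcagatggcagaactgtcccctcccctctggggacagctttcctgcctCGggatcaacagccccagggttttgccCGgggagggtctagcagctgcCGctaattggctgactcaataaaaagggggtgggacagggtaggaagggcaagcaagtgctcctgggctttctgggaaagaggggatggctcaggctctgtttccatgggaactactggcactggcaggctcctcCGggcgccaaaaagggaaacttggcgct
Kcnk18: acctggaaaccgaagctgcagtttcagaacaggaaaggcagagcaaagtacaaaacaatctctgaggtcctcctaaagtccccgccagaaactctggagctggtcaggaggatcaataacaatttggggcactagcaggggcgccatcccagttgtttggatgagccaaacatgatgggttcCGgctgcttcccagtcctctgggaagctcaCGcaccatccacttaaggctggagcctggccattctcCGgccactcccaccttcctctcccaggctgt
The Kcnip3 stretch holds 3 CCGG sites, and the other two stretches hold 2 each. Over the 93 start windows of 300 bp (250 before to 50 after a start) that the table of RefSeq start sequences gives for 68 of the genes, 63.4% held CCGG and the median number of CG pairs was 9. Of all 31396 autosomal windows, 53.5% held CCGG and the median was 7. The 35 Kcn windows with 3 or more cytosines in all 9 tables all held CCGG and had a median of 21 CG pairs. Of the other 58, 41.4% held CCGG and the median was 5. The starts measured in all 9 tables were thus richer in CG by the median, with exceptions. The Kcng3 start, with 49 CG pairs and 11 CCGG sites, was not among them, and a Kcnip4 start with 7 CG pairs was. Starts measured in only some of the tables, such as that of Kcnk18, are named as such below.

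As facts of the whole series, the tables held from 1083654 to 1380165 cytosines. The mean over all cytosines rose in blood from 33.6% ± 0.18 in saline to 35.5% ± 0.82 at 6 h of LPS (SD, n = 4 and 4, in the 6 h table). In hippocampus it was 25.8% ± 0.14 (SD, n = 3) in saline and 24.6% ± 0.32 (SD, n = 4) at 6 h. In cortex it was 31.2% in both groups. The tissues were checked on lists of marker genes of other cells. These lists hold methylation levels, which are not shares of cells. The list mean of neuron markers was lower in both brain tissues (17.3% and 16.5%) than in blood (20.6%), and neutrophil markers were higher in brain (70.7% and 76.6%) than in blood (65.0%). Oligodendrocyte markers were also lower in brain (29.7% and 27.0%, blood 33.4%), and T cell markers higher (53.9% and 53.9%, blood 48.7%). Other lists did not follow the tissue. Astrocyte and endothelial markers were higher in brain (33.0% and 33.1%, 39.2% and 41.9%) than in blood (30.4% and 37.9%). B cell markers were not higher in brain (45.3% and 48.1%) than in blood (48.4%). Within blood the neutrophil markers changed with LPS, and those values stand beside the blood results.

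Kcn genes had fewer members at very low methylation than protein-coding genes in general. In saline mice 25 of 84 genes (29.8%) lay under 10% in blood, 26 (31.0%) in hippocampus and 25 (29.8%) in cortex, against 47.7%, 49.4% and 48.6% of 15749 genes. At 80% or more stood 7, 6 and 7 of the 84 (8.33%, 7.14% and 8.33%), beside 7.75%, 8.55% and 8.69% of all genes. The low end was held by the inward rectifier Kcnj2, which sets the resting potential of heart and muscle cells, at 0.77%, 0.30% and 0.42% in blood, hippocampus and cortex. Also among the 5 lowest in each tissue were the A-type channel gene Kcna4, at 2.40%, 0.69% and 0.43%, and the silent subunit Kcns2, at 2.37%, 0.82% and 0.71%. The high end was held by Kcnv2, a silent subunit of photoreceptors, at 90.9%, 83.5% and 89.8%, by Kcna10 at 86.5%, 91.3% and 91.4%, and by Kcnu1, the sperm-specific relative of the BK channel, at 86.0%, 87.2% and 86.3%. The inward rectifier Kcnj15 stood at 80.9% in blood and at 91.7% and 91.6% in the 2 brain tissues. By class, the saline blood median over genes ran from 10.6% for the 13 two-pore genes to 36.8% for the 13 auxiliary genes, and the narrowest class, the ether-a-go-go genes, still ran from 2.45% to 43.5%.

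**Figure D1:**
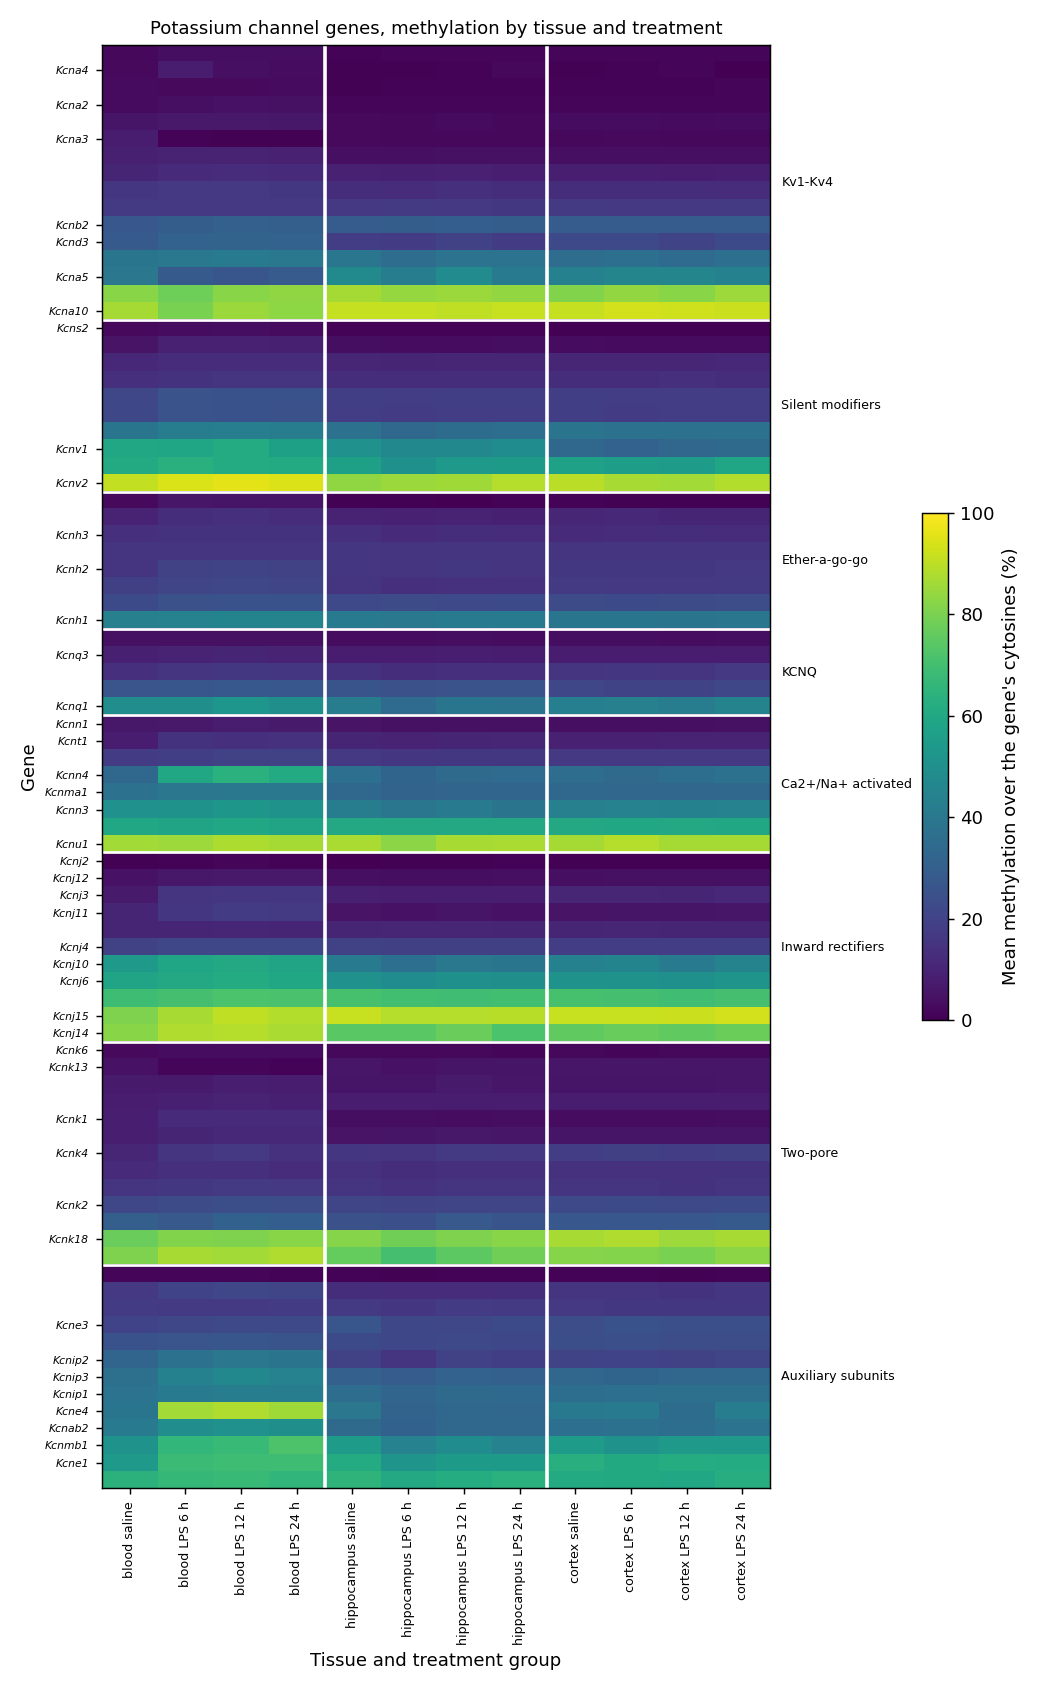
Mean percent methylation (colour, 0 to 100%) of the 84 Kcn genes (rows, by class and then by saline blood level) in the 12 tissue-by-treatment groups (columns), on cytosines that all 9 tables share. Rows are labelled for genes that the text names. Levels differ far more between genes than between groups, and Kcne4 and Kcnn4 change visibly between blood saline and blood LPS.

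Cytosines near gene starts were far less methylated than those farther away. The 2050 cytosines within 1000 bp of an annotated start, in 55 genes, averaged 3.44% in saline blood, 2.16% in hippocampus and 2.31% in cortex. The 1489 cytosines farther away, in 58 genes, averaged 45.9%, 42.7% and 43.1%. In the 43 genes with both, the near cytosines were lower in 42 genes in blood and in 43 in each brain tissue. All 35 start windows measured in all 9 tables were under 5% in both brain tissues and 34 of 35 in blood. Of all 7753 autosomal start windows so measured, 94.3%, 95.2% and 94.8% were under 5% in blood, hippocampus and cortex, so the Kcn starts were much like those of other genes. The exception in blood was Kcnip3. Some Kcn starts measured in only part of the tables were far higher. In saline mice an internal Kcnj12 start (window chr11:61065554-61065853, 4 cytosines) was at 88.7% in blood, 95.7% in hippocampus and 91.9% in cortex. It lies far inside the gene, which spans 61022564 to 61073269. As a whole Kcnj12 averaged 4.99%, 4.15% and 4.16% in these tissues on 113 shared cytosines. The Kcnk18 start was at 73.7% in blood and 89.5% in cortex (24 h tables), and the Kcnn4 and Kcnj13 starts at 38.8% and 30.5% in hippocampus (12 h table). The near and far split was made after the data were seen.

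The saline tissues were compared to see which channel genes carry tissue-specific methylation. Few genes differed between hippocampus and cortex, and many more differed between either of them and blood. Between hippocampus and cortex 3 of 67 genes tested were higher in hippocampus and 0 were lower (limma, Benjamini-Hochberg adjusted p under 0.05 over all genes), whereas 7.17% of all genes were called, 1.39% higher and 5.77% lower. The clearest was Kcnv1, a silent subunit of the brain, on 5 cytosines. It read 50.8%, 51.1% and 49.8% in hippocampus and 30.5%, 34.7%, 33.0% and 34.6% in cortex. The groups were far apart, with a difference of 17.4 points (SE 1.2, adjusted p = 0.00153). The auxiliary Kcne3 was 26.9% ± 0.76 in hippocampus and 23.5% ± 0.86 in cortex (adjusted p = 0.0254, SD, n = 3 and 4, limma). Without any one of the 3 hippocampus libraries 1 gene was higher.

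Against blood, hippocampus was higher in 10 and lower in 28 of 71 genes, where 21.3% of all genes were called higher and 33.5% lower (54.8% in all). Cortex was higher in 11 and lower in 26 of 71, where 23% of all genes were called higher and 28.3% lower (51.3% in all). The shares of Kcn genes called lay near those backgrounds in the hippocampus and cortex comparisons with blood. These comparisons share the blood libraries. Kcnip2, the calcium-binding partner of Kv4 channels, read 30.8%, 34.0%, 34.7% and 31.4% in blood and 20.3%, 18.9% and 18.7% in hippocampus, with no overlap (adjusted p = 3.23e-05, limma). Cortex gave 20.6% ± 1.3 (SD, n = 4) for it. Kcnj10, the inward rectifier through which astrocytes clear potassium, read 54.1%, 52.7%, 53.8% and 53.7% in blood and 42.8%, 40.9% and 40.5% in hippocampus (adjusted p = 1.26e-05, limma), and 43.8% ± 2.2 (SD, n = 4) in cortex. Every brain library was below every blood library. Kcnd3, a Kv4 alpha subunit, was 28.2% ± 1.4 in blood and 18.3% ± 1.1 in hippocampus (SD, n = 4 and 3), and Kcnn3, an SK channel, was 50.7% ± 1.2 in blood, 41.9% ± 1.4 in hippocampus and 43.4% ± 2.3 in cortex (SD, n = 4, 3 and 4). The GIRK channel gene Kcnj6 was lower in cortex (51.3% ± 1.8) than in blood (58.5% ± 0.57).

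Higher in brain was Kcnj15, at 80.9% ± 0.91 in blood, 91.7% ± 0.084 in hippocampus (adjusted p = 3.78e-05) and 91.6% ± 1.1 in cortex (adjusted p = 3.03e-05, limma). Kcne1, the partner of Kcnq1 in the cardiac slow current, rose from 54.3% ± 1.5 in blood to 61.6% ± 3.0 and 63.2% ± 2.8, and the two-pore gene Kcnk4 from 10.6% ± 1.2 to 15.9% ± 0.77 and 18.3% ± 2.6. Kcna5, a Kv1 channel of atria, vessels and macrophages, was 39.5% ± 1.7 in blood and 47.7% ± 5.5 in hippocampus (adjusted p = 0.022, limma). Kcnv1 fell by 26.9 points from blood to cortex and by 9.54 from blood to hippocampus. Kcnh2, which encodes the hERG channel, did not pass the test between hippocampus and blood (15.7% ± 0.57 and 15.6% ± 0.34, adjusted p = 0.764, SD, n = 3 and 4, limma).

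**Figure D2:**
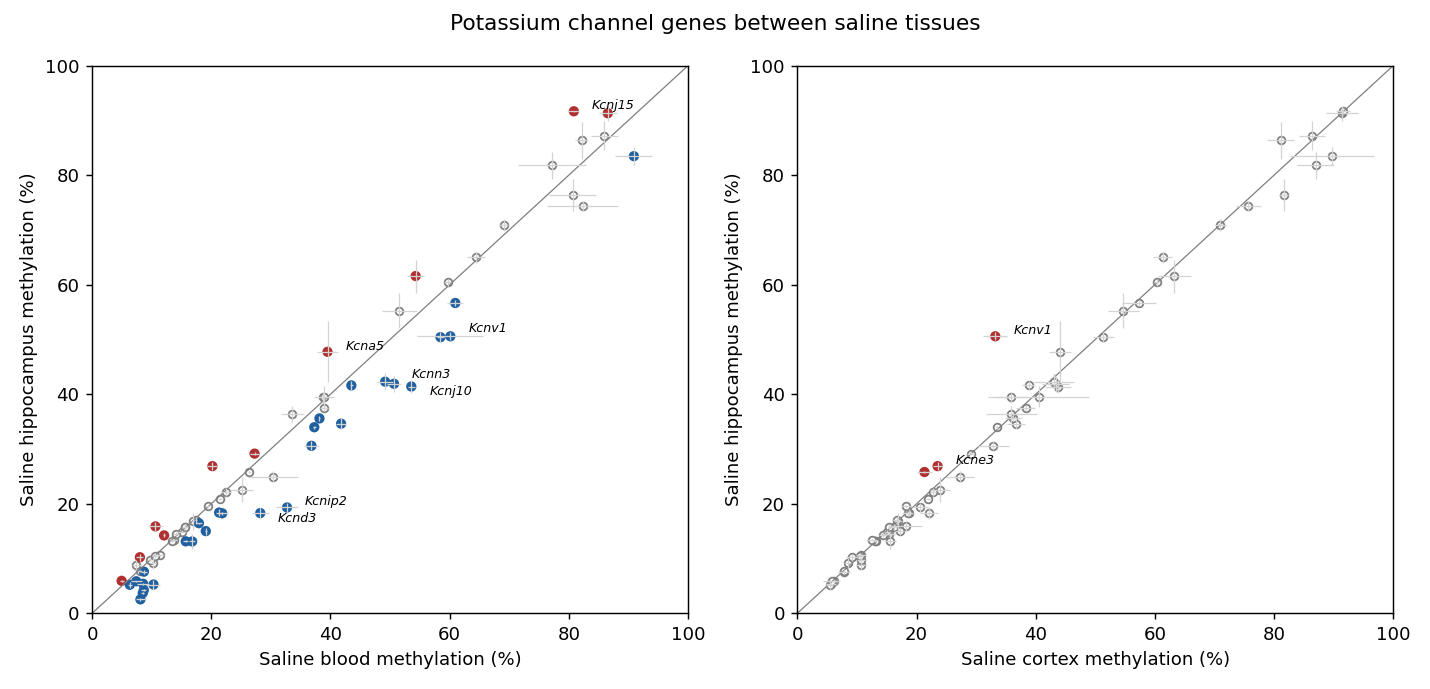
Saline hippocampus level of each tested Kcn gene (y axis, percent methylation) against saline blood (left) and saline cortex (right), as group means with SD bars. Filled points passed the test, red for higher and blue for lower in hippocampus. Kcnip2, Kcnj10 and Kcnn3 lie below the diagonal and Kcnj15 above it on the left, and Kcnv1 is far above it on the right.

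Much larger tissue differences were seen in single tiles of 1 kb within the genes, including genes whose mean did not differ. A tile counted as different when its adjusted p was under 0.05 and its difference at least 5 points. Of 217 tiles in Kcn windows, 51 were higher and 74 lower in hippocampus than in blood, where 24.3% of all tiles were higher and 26.3% lower (50.7% in all). In cortex 43 of 214 were higher than in blood and 66 lower, where 24.9% and 23.7% of all tiles were (48.6% in all). In Kcnip1, encoding a calcium-binding partner of Kv4 channels, the tile at chr11:33992000-33992999 (mm10) was 82.8% ± 1.8 in blood, 22.5% ± 2.0 in hippocampus and 37.8% ± 7.1 in cortex. A tile of the BK channel gene Kcnma1 (chr14:23830000-23830999) went the same way, from 66.8% in blood to 15.2% and 23.8%. The opposite order was found in Kcnk2, encoding the TREK-1 leak channel (chr1:189212000-189212999), with 41.1% ± 2.1 in blood, 87.6% ± 3.0 in hippocampus and 80.3% in cortex. Kcnb2 (chr1:15324000-15324999) read 51.6%, 91.8% and 91.0% in the same order. Between the 2 brain tissues 12 of 201 tiles were higher in hippocampus and 17 lower, where 3.59% of all tiles were higher and 9% lower (12.6% in all). A Kcnh1 tile (chr1:192480000-192480999) read 81.5%, 80.4% and 74.8% in hippocampus and 49.3%, 39.3%, 49.5% and 43.6% in cortex. A Kcnq1 tile (chr7:143165000-143165999) read 61.6%, 70.3% and 68.1% in hippocampus and from 92.3% to 93.2% in the 4 cortex libraries. Neither pair of groups overlapped (adjusted p = 0.00033 and 0.000132, limma). All the tiles named here lie inside the span of their gene.

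In blood, many more Kcn genes were higher than lower after LPS, at all 3 times. The question of these comparisons was what an inflammatory challenge does in this model. At 6 h, 36 of 81 genes rose and 2 fell, at 12 h 45 of 79 rose and 4 fell, and at 24 h 38 of 81 rose and 3 fell (limma, adjusted p under 0.05 over all genes). Of all genes, 52.2% passed at 6 h (42.4% higher, 9.8% lower), 56% at 12 h (48% and 7.95%) and 49.7% at 24 h (40.9% and 8.86%). The Kcn genes thus rose about as often as genes in general. Their median difference was 1.27, 2.14 and 1.42 points at 6, 12 and 24 h, and that of all genes 1.15, 1.65 and 1.27. The 3 comparisons share the same 4 saline libraries. Each used the cytosines of its own table, so a gene's saline level can differ between them and from the tissue comparisons above. Kcnh2, for example, had 140 cytosines in the 6 h blood table and 110 in the shared set. On the shared cytosines the mean over the 84 genes was 28.3% ± 0.38 in saline blood and 31.0% ± 0.99, 31.8% ± 1.0 and 31.2% ± 1.3 at the 3 times. Without LPS 6 h replicate 3 the genes lower at 6 h were 6, without LPS 24 h replicate 2 those at 24 h were 7, and on the shared cytosines 1 gene was lower at each time. With library means, which rose with LPS, subtracted first, 20, 19 and 17 genes were higher and 22, 20 and 21 lower at 6, 12 and 24 h. The shares of all genes under this centring are not given here, so these counts say nothing about Kcn genes in particular. With centring, small rises such as those of Kcnk6 and Kcnn1 changed sign, and the large changes of Kcne4, Kcnn4 and Kcna5 below did not.

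Blood is a mixture of cells, and markers of its cell types moved with LPS. The mean over the 10 neutrophil markers on shared cytosines was 65.0% in saline blood (libraries from 63.8% to 66.7%) and 45.6% (43.5% to 48.0%), 45.3% and 42.7% at 6, 12 and 24 h. At 6 h 10 of 11 tested were lower and 0 higher, among them the granulocyte factor Cebpe (61.3% to 25.8%), myeloperoxidase Mpo (71.2% to 40.4%) and the protease gene Prtn3 (37.2% to 8.5%). B cell markers moved the other way, with a list mean over 5 genes of 48.4% in saline and 61.6% at 6 h (3 of 7 tested higher, 1 lower). T cell markers went from 48.7% to 52.7% (7 genes in the mean, 4 of 9 tested higher, 2 lower), and monocyte and microglia markers from 74.8% to 64.8% (7 genes, 2 of 9 tested higher, 4 lower). The mean over 3 erythroid and platelet markers went from 13.6% to 16.1%. Of all genes, 42.4% were called higher and 9.8% lower at 6 h. The shares of B and T cell markers called higher lay near that. Lists of cells that are not blood cells moved in these libraries too. Their means went from 20.6% to 24.6% for neuron, from 30.4% to 35.7% for astrocyte, from 37.9% to 45.6% for endothelial and from 33.4% to 33.8% for oligodendrocyte markers (9, 6, 4 and 7 genes). A different mix of blood cells and a change within cells cannot be told apart in these bulk samples. The part of the cell mix in each blood result below was not tested.

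The rises differed widely in size between genes, and the largest was that of the auxiliary Kcne4. At 6 h 8 of 13 auxiliary genes rose and 0 fell, where 42.4% of all genes rose and 9.8% fell. The auxiliary median difference was 4.19 points, with a range from -7.45, which did not pass, to 47.3. Kcne4, a beta subunit that inhibits Kv1 channels and binds Kcna3 in immune cells, read 39.0%, 37.3%, 38.1% and 41.3% in the saline libraries and 87.7%, 77.4%, 88.0% and 92.0% at 6 h of LPS. The groups were far apart, by 47.3 points (SE 2.8, adjusted p = 4.22e-06, limma, 7 cytosines). The same saline libraries stood against 86.9%, 90.001% and 87.2% at 12 h and 86.1%, 88.3% and 82.8% at 24 h (adjusted p = 5.06e-07 and 8.91e-07, limma). Nearly all of it lay in 5 cytosines 3332 to 3459 bp past the gene's start, just beyond its annotated end (chr1:78820243-78820370), which averaged 26.0% ± 2.8 in saline and 87.8% ± 6.3, 89.7% ± 1.4 and 88.4% ± 2.7 at the 3 times. These cytosines were at 26.3% in saline hippocampus and 31.9% in saline cortex. The 2 cytosines 58 to 115 bp before the start were at 71.3% ± 5.5 in saline blood and 82.4% ± 7.2 at 6 h.

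Kcnmb1, the beta 1 subunit of the BK channel in smooth muscle, read 53.3%, 50.2%, 48.1% and 54.5% in saline and 64.2%, 62.2%, 72.8% and 65.2% at 6 h (difference 14.6, SE 2.4, adjusted p = 0.000878, limma, 6 cytosines). It was 67.2% ± 6.4 at 12 h and 72.2% ± 3.0 at 24 h (SD, n = 3 each). Kcne1 read 48.8%, 49.4%, 46.2% and 49.3% in saline and 59.2%, 62.3%, 64.4% and 57.2% at 6 h (difference 12.3, SE 1.6, adjusted p = 0.000223, limma), and stood at 62.7% ± 7.6 and 62.2% ± 7.5 later. In both genes every LPS library lay above every saline library at all 3 times. Kcnab2, the cytoplasmic beta subunit of Kv1 channels, rose from 49.3% ± 0.80 to 57.9% ± 1.5 at 6 h on 115 cytosines (SD, n = 4 each, adjusted p = 6.2e-05, limma), and by 10.3 and 9.40 points at 12 and 24 h. Its window overlaps Chd5 and Nphp4.

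The calcium-binding protein gene Kcnip3, also known as DREAM, rose from 41.1% ± 1.2 to 47.0% ± 1.1 at 6 h (SD, n = 4 each, adjusted p = 0.000279, limma, 78 cytosines). Its first start, whose sequence is printed above, was the Kcn start window called at all 3 times. Few Kcn starts could be tested, since most lay under the limit of 5%. The internal Kcnj12 start, measured in only part of the tables, did not pass (88.7% in saline blood and 91.9% at 6 h, adjusted p = 0.227, limma). The 300 bp window of the first Kcnip3 start (chr2:127522045-127522344) read 19.0%, 18.9%, 21.0% and 10.99% in saline and 44.02%, 39.8%, 55.5% and 42.0% at 6 h, without overlap (adjusted p = 0.000209, limma). It was 50.1% at 12 h and, on 7 cytosines, 41.0% at 24 h against 15.5% in saline (adjusted p = 4.26e-05 and 0.000584, limma). Of all start windows tested, 52.1%, 49.7% and 50.2% were called at the 3 times. Including the 2 cytosines just upstream, the 8 cytosines there averaged 21.6% in saline blood, 51.8%, 57.0% and 53.9% after LPS, and 4.29% and 5.62% in saline hippocampus and cortex. Around a second start of the gene, a run of 26 cytosines went from 9.29% ± 0.57 to 12.8% ± 0.71 at 6 h, while the 300 bp window of that start itself was near 0, at 1.003% ± 0.40 in saline and 0.34% ± 0.41 at 6 h (SD, n = 4 each, 6 cytosines). The gene start windows were picked after their values were seen.

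In the class of calcium- or sodium-activated channels, in which the BK relative Kcnu1 was also placed, 3 of 8 genes rose at 6 h and 0 fell. Kcnn4, the intermediate-conductance channel KCa3.1 of lymphocytes, red cells and macrophages, read 32.1%, 31.3%, 35.6% and 28.7% in saline and 59.1%, 51.7%, 55.3% and 53.1% at 6 h. The difference was 22.9 points (SE 1.9, adjusted p = 1.94e-05, limma, 45 cytosines), with no overlap. At 12 h it was 58.7% ± 4.8 against 33.6% ± 1.7, and at 24 h 54.5% ± 6.8 against 32.9% ± 1.7 (SD, n = 3 and 4). The sodium-activated Kcnt1 rose from 24.0% ± 0.38 to 31.6% ± 0.21 (SD, n = 4 each, adjusted p = 1.68e-06, limma) at 6 h. Its saline level was 11.2% in the 12 h table and 16.2% in the 24 h table, which hold other cytosines, and it rose there by 6.57 and 8.10 points. Kcnma1, the BK channel alpha subunit, did not pass at 6 h (49.5% ± 0.39 and 50.2% ± 1.2, adjusted p = 0.48, limma).

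**Figure D3:**
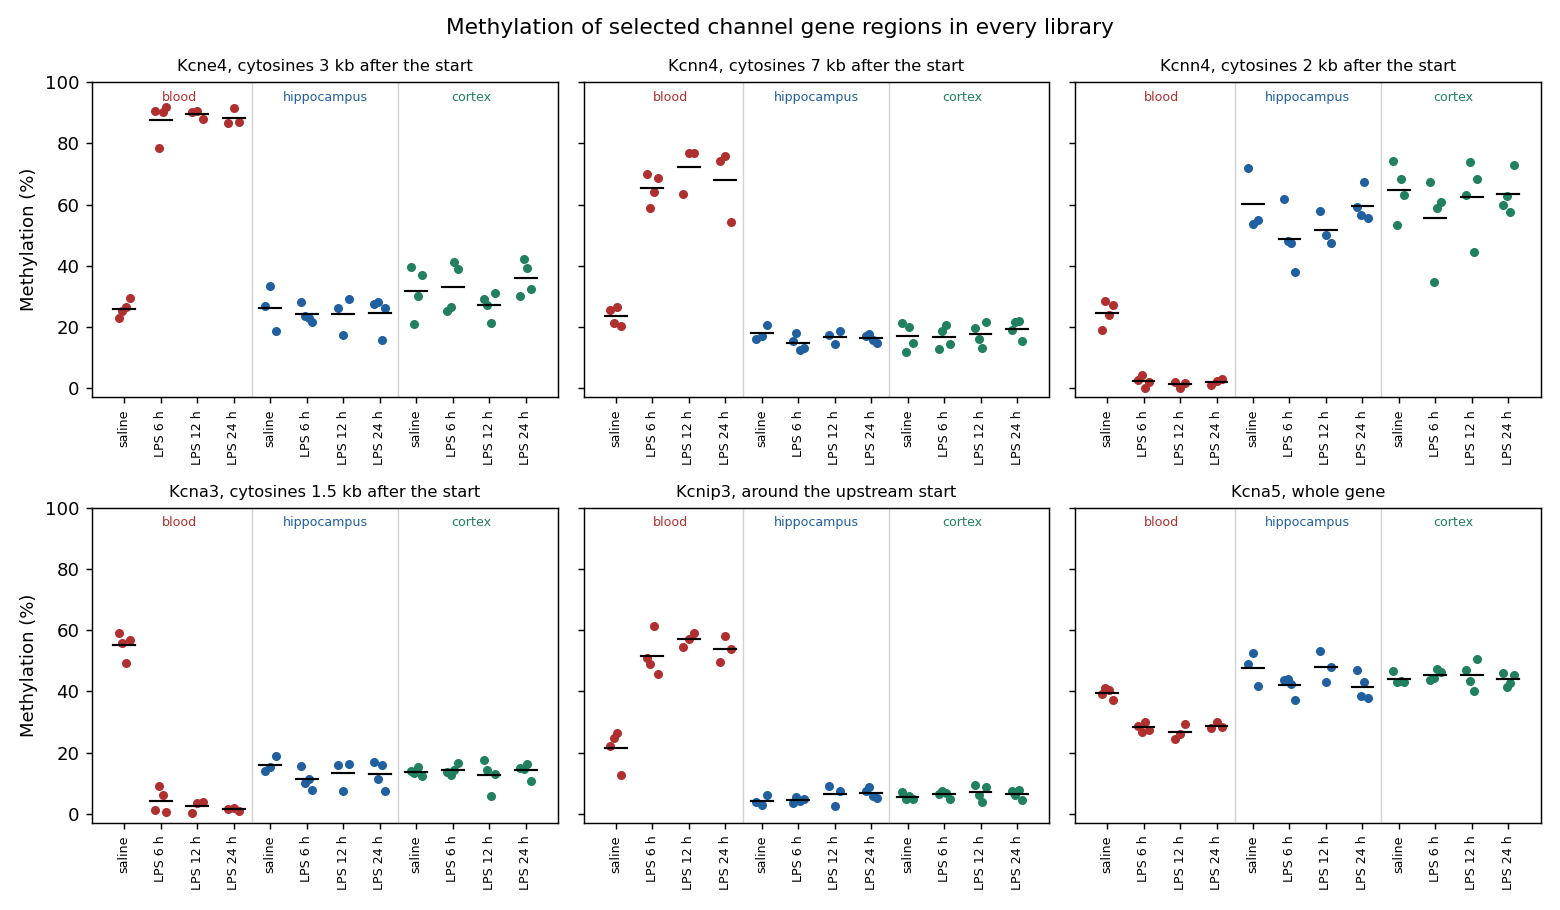
Percent methylation in each of the 44 libraries (points) and group means (bars) for 5 runs of cytosines of Kcne4, Kcnn4, Kcna3 and Kcnip3 and for the Kcna5 gene, on cytosines that all 9 tables share. In every panel the blood LPS libraries are apart from the 4 blood saline libraries, above them for Kcne4, Kcnn4 near 7 kb and Kcnip3 and below them for Kcnn4 near 2 kb, Kcna3 and Kcna5.

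Kcnn4 did not change in one direction along its length. Its 22 cytosines 6856 to 7370 bp past the start (chr7:24377119-24377633) averaged 23.4% ± 3.1 in saline blood and 65.5% ± 5.0, 72.3% ± 7.8 and 68.2% ± 12 at 6, 12 and 24 h, and all 22 rose. They stood at 17.9% and 16.9% in saline hippocampus and cortex. The 4 cytosines 2138 to 2295 bp past the start (chr7:24372401-24372558) fell over the same libraries, from 24.5% ± 4.2 to 2.21% ± 1.7, 1.19% ± 1.1 and 2.0% ± 1.1. In saline hippocampus and cortex these were at 60.2% and 64.7%. The single cytosine 246 bp before the start was at 10.7% ± 2.7 in saline blood and 1.11% ± 2.2 at 6 h, and at 69.0% and 52.5% in the 2 brain tissues. The last 2 runs of the gene lay between 80.2% and 96.7% in all 12 groups. By tile, the rise read 25.4%, 22.5%, 29.8% and 19.4% in saline and 72.1%, 60.0%, 66.4% and 63.6% at 6 h (chr7:24377000-24377999, adjusted p = 2.95e-07), and the fall 27.1%, 34.7%, 29.4% and 32.0% against 2.61%, 4.21%, 2.0% and 2.89% (chr7:24372000-24372999, adjusted p = 6.1e-08, limma). The runs were defined by gaps of more than 1000 bp between cytosines, for 4 genes picked after their values were seen.

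**Figure D4:**
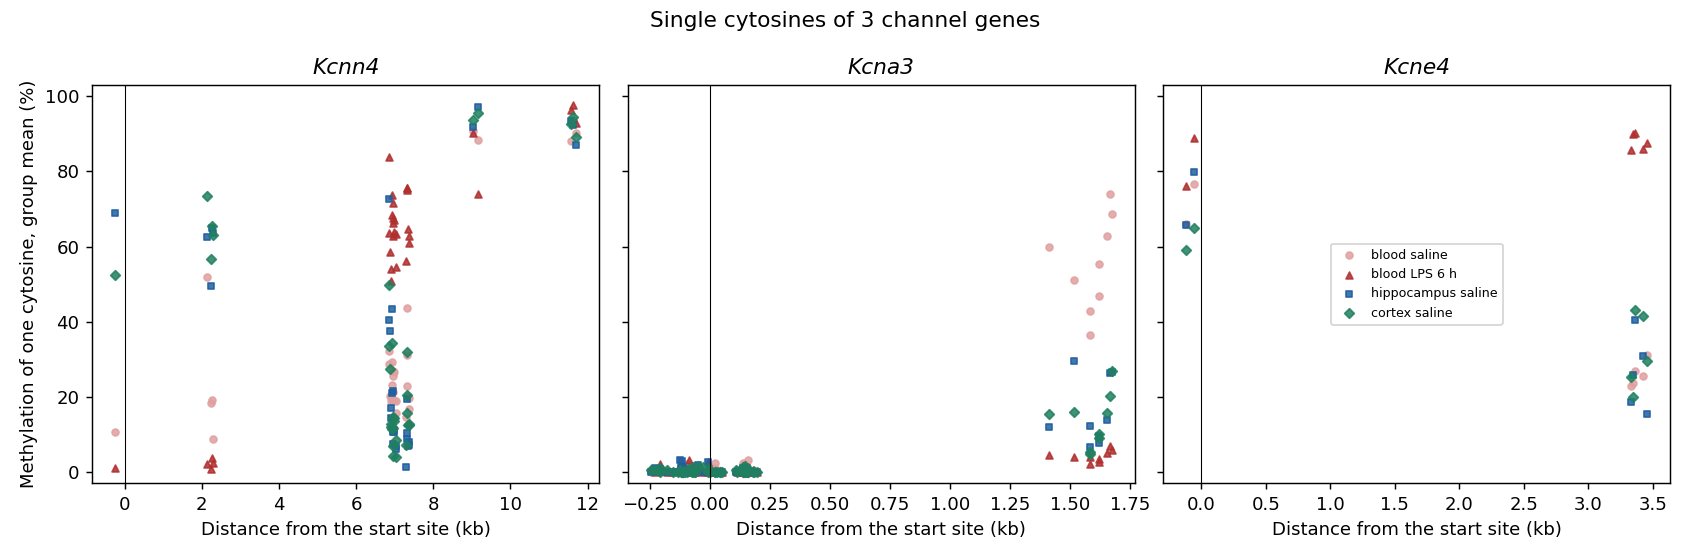
Percent methylation of single cytosines (y axis, group mean) against distance from the start in kb (x axis) for Kcnn4, Kcna3 and Kcne4, in saline blood, blood at 6 h of LPS, saline hippocampus and saline cortex. In Kcnn4 the LPS points lie lowest near 2 kb and highest near 7 kb, in Kcna3 lowest beyond 1.4 kb, and in Kcne4 highest near 3.4 kb.

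Of the 13 Kv1 to Kv4 genes tested at 6 h, 3 rose and 1 fell. The fall was Kcna5, with 43.7%, 48.6%, 44.7% and 46.4% in saline and 35.1%, 36.7%, 37.5% and 35.4% at 6 h (difference -9.66, SE 1.1, adjusted p = 0.000116, limma). It fell by 10.5 at 12 h and by 8.15 at 24 h (adjusted p = 0.000732 and 0.00108, limma), again without overlap. Kcna3, the Kv1.3 channel of T cells, was not tested as a gene because its mean over saline and LPS libraries together lay under the limit of 5% set for testing, so it is not in that count. It read 7.67%, 7.37%, 6.22% and 7.65% in saline and 0.88%, 1.69%, 1.16% and 0.35% at 6 h. The groups did not overlap, and its low level after LPS is what brought the mean under the limit. Its 55 cytosines around the start were at 0.37% in saline blood, at most 0.53% in any blood LPS group, and at 0.32% and 0.30% in saline hippocampus and cortex. The 9 cytosines 1414 to 1675 bp past the start, still inside this short gene (chr3:107037576-107037837), read 59.2%, 55.9%, 49.3% and 56.9% in saline and 1.11%, 9.21%, 6.14% and 0.52% at 6 h. That tile fell by 51.1 points (SE 2.8, adjusted p = 2.51e-08, limma), to 2.49% ± 2.0 at 12 h and 1.42% ± 0.44 at 24 h (SD, n = 3 each). In brain it was at 16.04% in saline hippocampus and 13.7% in saline cortex. Of the other Kv genes, Kcnd3 rose by 3.04 points at 6 h with overlapping groups, and Kcna2 (12.4% to 13.6%, adjusted p = 0.0691, limma) did not pass.

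Of the 8 ether-a-go-go genes 4 rose at 6 h and 0 fell. Kcnh2 read 26.6%, 26.7%, 26.4% and 27.2% in saline and 31.7%, 30.1%, 31.7% and 30.6% at 6 h, with no overlap (difference 4.29, SE 0.47, adjusted p = 9.01e-05, limma). A tile of 8 cytosines in it (chr5:24322000-24322999) went from 40.9% ± 2.1 to 83.1% ± 4.0 (SD, n = 4 each), while Kcnh1 did not pass as a gene (49.0% ± 0.22 and 50.5% ± 1.0, adjusted p = 0.0763, limma). Of 5 KCNQ genes 2 rose at 6 h. Kcnq3, a subunit of the channel of the neuronal M-current, rose from 12.5% ± 0.46 to 14.6% ± 0.63 (adjusted p = 0.00162, SD, n = 4 each, limma).

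Kcnq1, the cardiac and epithelial KCNQ channel, was level as a gene, at 51.2% ± 0.96 in saline and 49.8% ± 2.2 at 6 h (SD, n = 4 each, adjusted p = 0.326, limma), but tiles within its 320174 bp moved in both directions. The tile at chr7:143373000-143373999 read 69.1%, 71.5%, 60.9% and 69.4% in saline and 24.2%, 27.6%, 23.4% and 28.3% at 6 h (adjusted p = 1.42e-07, limma), and 24.7% and 21.0% at 12 and 24 h. The tile at chr7:143340000-143340999 read 65.9%, 63.0%, 63.9% and 61.8% in saline and 93.3%, 81.8%, 94.4% and 93.2% at 6 h (adjusted p = 5.1e-06, limma). Kcnq1 also contains Kcnq1ot1, an antisense RNA whose start lies in a well-known imprinted control region that is methylated on 1 parental allele. A tile of 21 cytosines (chr7:143295375-143295618) lies 929 to 1172 bp inside the high-coordinate end of Kcnq1ot1 (143213111 to 143296547). It was at 45.1% ± 7.0 in saline blood, with libraries from 37.4% to 54.3%, and at 31.0% ± 5.0 at 6 h (adjusted p = 0.00617), 37.6% ± 8.4 at 12 h (adjusted p = 0.204) and 27.1% ± 10 at 24 h (adjusted p = 0.00915, limma). These groups overlapped, and whether the tile belongs to the imprinted region was not tested. It was singled out after its values were seen, as was the tile of Kcnh2 above.

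Of the 12 inward rectifiers 6 rose at 6 h and 0 fell. Kcnj3, a subunit of the channels opened by G-protein-coupled receptors, read 16.7%, 17.0%, 17.0% and 18.2% in saline and 24.3%, 22.3%, 26.5% and 22.1% at 6 h (difference 6.56, SE 0.94, adjusted p = 0.000434, limma). Kcnj11, the pore of the ATP-sensitive channel, went from 11.3% ± 1.6 to 17.5% ± 2.3 (adjusted p = 0.0023) and Kcnj10 from 60.2% ± 1.2 to 64.0% ± 1.7 (adjusted p = 0.0148, SD, n = 4 each, limma). Tiles moved more. In Kcnj12 (chr11:61059000-61059999) 3 cytosines went from 18.6%, 23.9%, 20.5% and 25.5% to 73.0%, 69.2%, 80.04% and 75.1%. In Kcnj3 (chr2:55569000-55569999) 4 cytosines went from 37.1% ± 3.8 to 84.5% ± 9.1 (SD, n = 4 each). At 12 h Kcnj16 was called lower on 3 cytosines with overlapping groups (91.6% ± 3.4 and 82.0% ± 7.0, adjusted p = 0.0435), and Kcnmb3 on 4 (87.3% ± 1.8 and 81.4% ± 1.8, adjusted p = 0.0075, SD, n = 4 and 3, limma). At 24 h Kcnj14 was called lower (54.4% ± 2.7 and 49.2% ± 1.6, SD, n = 4 and 3, adjusted p = 0.0245, limma), but on the cytosines shared by all tables its difference was 4.89 points upwards.

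Of the 13 two-pore genes 5 rose at 6 h and 1 fell. Kcnk13 (THIK-1) read 17.8%, 17.3%, 17.7% and 17.7% in saline and 15.2%, 16.1%, 14.98% and 14.5% at 6 h (difference -2.41, SE 0.37, adjusted p = 0.000664, limma), and fell by 3.10 and 2.57 points at 12 and 24 h. A tile of 6 cytosines inside the gene (chr12:100005000-100005999) read 69.0%, 57.0%, 69.1% and 62.1% in saline and 8.25%, 27.8%, 10.6% and 9.34% at 6 h (adjusted p = 4.31e-07, limma). It was at 8.76% ± 3.2 and 6.03% ± 2.6 at 12 and 24 h (SD, n = 3 each), and at 81.4% and 84.9% in saline hippocampus and cortex. Kcnk1 rose from 10.03% ± 0.21 to 13.4% ± 1.3 (SD, n = 4 each, adjusted p = 0.00109, limma), and Kcnk2 was level at 31.0% and 31.2%. The class of 9 silent subunits had 5 rises and 0 falls, with a median difference of 2.90 points.

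**Figure D5:**
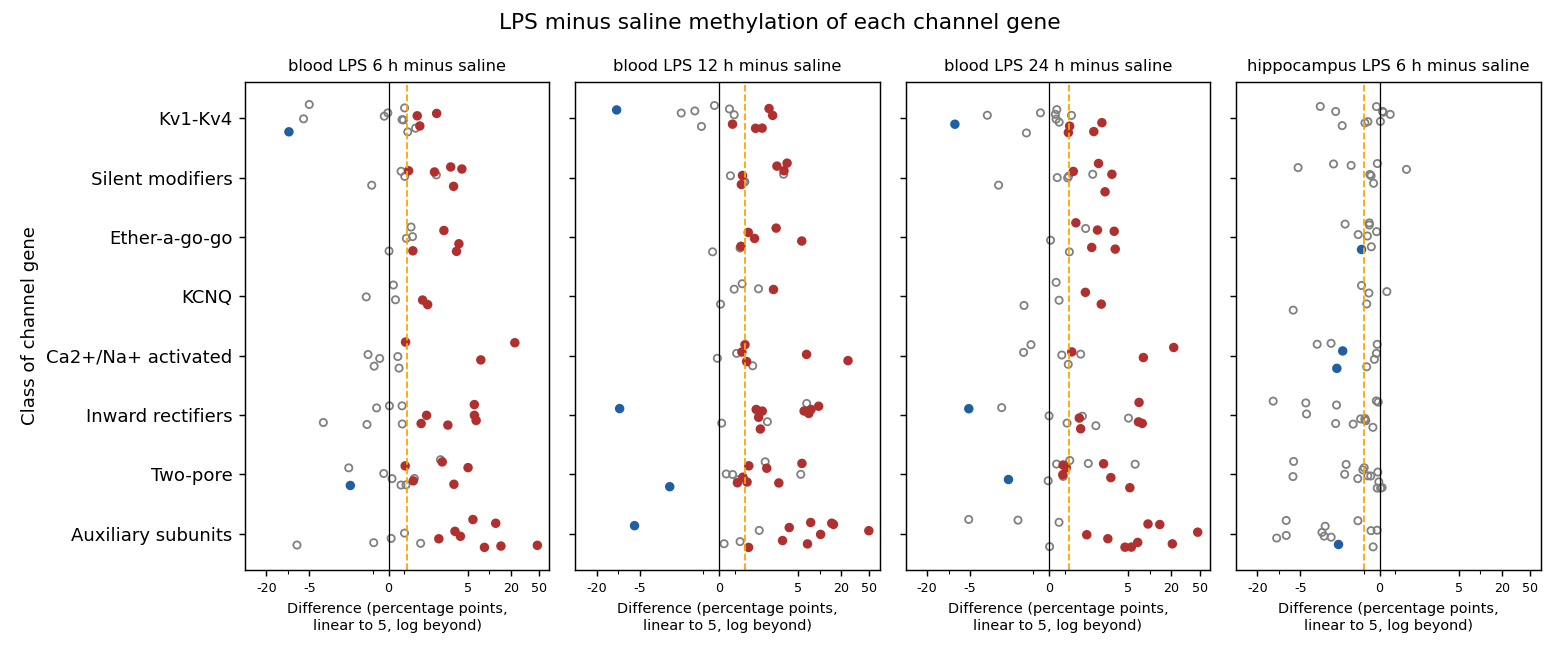
Difference in percent methylation between LPS and saline (x axis, linear to 5 points and logarithmic beyond) of each tested Kcn gene, by class, in blood at 6, 12 and 24 h and in hippocampus at 6 h. Filled points passed the test, red for higher and blue for lower, and the dashed line is the median over all genes tested. Kcne4 (47.3 points at 6 h) and Kcnn4 (22.9) lie farthest to the right and Kcna5 (-9.66) is the lowest filled point at 6 h.

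Counted by tile, 91 of 359 Kcn tiles were higher and 33 lower at 6 h, 95 and 19 of 300 at 12 h, and 89 and 28 of 350 at 24 h. Of all tiles, 41.4% were called at 6 h (29.6% higher, 11.8% lower), 44.5% at 12 h (34.6% and 9.95%) and 42.5% at 24 h (31.1% and 11.3%), a larger share than among Kcn tiles. Called tiles of both directions lay in 17 of 55 Kcn genes with a called tile at 6 h, 11 of 54 at 12 h and 16 of 58 at 24 h. Kcnn4 and Kcnq1 were among them each time. In the Kcnn4 run near 7 kb and in the Kcne4 run saline blood stood close to saline brain and LPS blood did not. In the Kcna3 tile saline blood was far above saline brain and LPS blood below it. Of 70 higher Kcn tiles set beside saline brain at 6 h, saline blood was nearer the brain mean in 43 and LPS blood in 27. Of 21 lower tiles these were 15 and 6. The shares over all tiles are not given here.

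No Kcn gene differed between 24 h and 6 h of LPS in any tissue (0 of all genes called by limma in each tissue). Unadjusted p under 0.05 was met by 1 Kcn gene in blood, 9 in hippocampus and 0 in cortex, and by 2.04%, 6.77% and 1.58% of all genes. In blood the largest class median difference between these times was 0.60 points, in the auxiliary genes.

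In hippocampus the Kcn genes were on the whole slightly lower 6 h after LPS, and few passed the test. Of 78 genes 4 were called lower and 0 higher (limma), where 6.46% of all genes were called, 6.45% lower and 0.0179% higher. On the shared cytosines the mean over the 84 genes was 26.9% ± 0.07 in saline and 25.2% ± 0.46 at 6 h (SD, n = 3 and 4). With unadjusted p under 0.05 there were 31 (31.2% of all genes), and 8 of the 78 differences were positive, with a median of -0.92 points against -0.99 over all genes. Kcnn4 read 26.0%, 25.9% and 25.4% in saline and 23.7%, 24.1%, 21.9% and 22.6% at 6 h (adjusted p = 0.0468, limma). Kcnab2 was 31.4% ± 0.45 and 28.8% ± 0.87 (adjusted p = 0.0481), Kcnma1 31.1% ± 0.25 and 28.7% ± 0.78 (adjusted p = 0.0494), and Kcnh3, an ether-a-go-go gene of forebrain neurons, 13.8% ± 0.21 and 12.6% ± 0.27 (adjusted p = 0.0465, SD, n = 3 and 4, limma). In all 4 the groups did not overlap, and 30 of the 78 genes had groups that did not overlap, beside 29.5% of all genes. The number of calls varied with the setting. Leaving out any one library left 0 or 1, centring each library on its own mean or testing without the limits on the mean left 0, and requiring 10 or more cytosines gave 11. The shares of all genes called under these settings are not given here, so the 11 says nothing about Kcn genes in particular. Larger differences did not pass, such as Kcne4 (39.6% ± 2.0 and 31.7% ± 3.5, adjusted p = 0.0539), Kcnq1 (42.1% ± 1.0 and 35.8% ± 2.9, adjusted p = 0.0536) and Kcnj13 (39.2% ± 4.5 and 27.1% ± 7.7, adjusted p = 0.107, SD, n = 3 and 4, limma).

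At 12 and 24 h in hippocampus, and at all 3 times in cortex (where the mean over the 84 genes lay between 26.6% and 27.2% in all 4 groups), 0 Kcn genes were called by limma, and 0 of all genes. With unadjusted p under 0.05 there were 1 and 10 Kcn genes in hippocampus at 12 and 24 h, where 2.26% and 10.2% of all genes were. In cortex there were 2, 0 and 5 at 6, 12 and 24 h, where 1.45%, 1.47% and 2.24% of all genes were. By tile, 0 Kcn tiles passed in either brain tissue at any time, as was so for all tiles (0%). Unadjusted p under 0.05 was met by 62, 7 and 25 Kcn tiles in hippocampus, of 299, 330 and 275 tested, and by 18%, 3.65% and 9.2% of all tiles. In cortex it was met by 12, 12 and 10, and by 2.98%, 2.98% and 3.25% of all tiles. The tiles that moved in blood gave, in hippocampus at 6 h, 81.4% in saline and 68.1% with LPS for Kcnk13 (adjusted p = 0.121) and 83.3% and 71.4% for Kcnq1 at 143373000 (adjusted p = 0.105, limma). In cortex at 6 h these tiles read 84.9% and 84.6%, and 61.4% and 60.5%. Without LPS 12 h replicate 2, 5 Kcn genes were called higher in hippocampus at 12 h. The share of all genes called in that fit is not given here.

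The blood and brain responses were then compared directly, as the difference between the LPS differences. Against hippocampus, 46 of 70 Kcn genes differed at 6 h, 36 of 70 at 12 h and 33 of 70 at 24 h, where 53.9%, 42.2% and 46.7% of all genes did. All 46 at 6 h had the higher difference in blood. With each library centred on its own mean, 37 of 70 differed at 6 h, where 58.9% of all genes did. The difference was then higher in blood for 20 and lower for 17. Against cortex, 27 of 71, 38 of 70 and 25 of 69 differed, where 39.3%, 44.9% and 39.1% of all genes did. Kcne4 differed most, by 55.2 points between blood (47.3) and hippocampus (-7.88) and by 47.0 between blood and cortex (0.38) at 6 h (adjusted p = 1.25e-07 and 3.78e-05, limma). Kcnn4 differed by 30.1 and 27.0 points and Kcnmb1 by 25.4 and 18.3 on the cytosines that all tables share. Between hippocampus and cortex 0 of 67 genes differed at any time (0% of all genes). Unadjusted p under 0.05 was met by 11, 2 and 7 at 6, 12 and 24 h, and by 12.5%, 1.59% and 8.18% of all genes.

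The channels were set beside 2 lists of related genes, both drawn up with earlier results of these data known. Of 23 partner proteins tested at 6 h in blood, 15 rose and 1 fell, with a median difference of 2.38 points, where 42.4% of all genes rose, 9.8% fell and the median was 1.15. The scaffold Dlg4, known as PSD-95 and also on the neuron marker list, went from 61.8% to 78.7%, and Abcc9, the sulfonylurea receptor that pairs with ATP-sensitive channels, from 44.4% to 53.3%. Lgi1, a secreted regulator of Kv1 complexes, went from 42.5% to 49.7%. The fall was Amigo1, a membrane partner of voltage-gated channels, from 16.3% to 10.4%. At 12 and 24 h 17 and 15 rose and 1 fell each time. Of 47 sodium, calcium, HCN and TRP channel genes 27 rose and 1 fell at 6 h (median 2.07), 31 and 2 at 12 h, and 22 and 3 of 46 at 24 h, where 48% and 7.95% of all genes rose and fell at 12 h and 40.9% and 8.86% at 24 h. The calcium channel subunit Cacng5 went from 74.8% to 88.1%, the capsaicin receptor Trpv1 from 77.7% to 89.3% and the pacemaker channel Hcn2 from 35.0% to 42.5%, while the muscle sodium channel Scn4a fell from 78.5% to 67.4%. In hippocampus at 6 h 0 of 20 partner proteins rose and 2 fell (Lgi1 and Abcc9), and 0 of 46 other channels rose and 8 fell, Cacna1e from 43.998% to 39.0% among them, where 6.45% of all genes fell. Whether these list calls hold without 1 library was not tested, and the Kcn calls of the same comparison did not.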

How the data were processed

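The authors deposited 9 tables of percent methylation per cytosine (0 to 100, mm10), 1 for each LPS group of a tissue with that tissue's saline libraries. Per the submitters' processing notes, reads were handled with Bismark and Bowtie2 on GRCm38 (mm10), with Trim Galore, FastQC, SAMtools and methylKit also named. Versions and the coverage minimum are not stated there. Deposited percentages carry no read counts, so depth is unknown and no counting interval is given. Bisulfite sequencing reads methyl and hydroxymethyl cytosine alike.

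The mean percent per gene (3 or more cytosines within 1000 bp of the span), 1 kb tile (3 or more) and 300 bp start window (RefSeq, GRCm38.p6) was computed per library. Features with a mean of 5 to 95% were fitted with limma 3.58.1 (R 4.3.3, lmFit and eBayes with trend) across all genes, tiles or windows, and p-values were Benjamini-Hochberg adjusted over all of them. A call needed an adjusted p under 0.05, and for tiles 5 points as well. Tissue, time and interaction comparisons used the 913806 cytosines of all 9 tables. There were 9 LPS, 3 tissue, 3 time and 9 interaction comparisons, and each fit held only the groups it compared. The fit was tested on simulated data.

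Group and replicate number came from the sample titles. Named genes were 30 preset members and, per comparison, the 5 largest rises and falls among genes called, the 3 among tiles each way, and the 5 highest and lowest saline levels per tissue. Some genes are not reported here. Items outside that rule are said to be chosen after their values were seen. The members, classes, lists and preset genes were chosen with earlier results of these data known. Alternatives tried were no limit on the mean, 10 or more cytosines, centring each library, a replicate block, only shared cytosines, and leaving out each library. Figures used Python 3.11.15 with matplotlib 3.10.9.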

Additional observations from a re-analysis of the deposited data

Results flagged for a closer look

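In groups of 4 libraries, 156 group values were examined for a highest or lowest library far from the other 3, and 7 were found. Chance gives about 1 in 20 groups, so 7 of 156 is close to what chance gives. At 6 h of LPS the lowest library of the Kcne4 tile (chr1:78820000) was 78.4% and the highest of the Kcnk13 tile (chr12:100005000) 27.8%. In saline blood of the 12 h table the highest Kcnma1 library was 46.95%. In saline blood of the 24 h table the highest Kcnj14 library was 58.4% and the highest of the Kcnip1 tile (chr11:33819000) 20.9%. On the shared cytosines the lowest saline blood library of Kcna3 was 7.00% and the highest saline cortex library 2.52%. In the Kcne4 and Kcnk13 tiles that library was the LPS library nearest to saline.

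The LPS difference differed between blood and a brain tissue for many Kcn genes by a test of the difference itself (limma interaction, adjusted over all genes), as the counts in the report show. The 3 called genes with the largest such difference in each comparison are given here, and they were Kcne4, Kcnn4 and Kcnmb1 each time. At 6 h Kcne4 differed by 55.2 points between blood and hippocampus (adjusted p = 1.25e-07), Kcnn4 by 30.1 (adjusted p = 2.88e-07) and Kcnmb1 by 25.4 (adjusted p = 0.000464). Between blood and cortex the differences were 47.0, 27.0 and 18.3 points. At 12 h they were 55.1, 32.3 and 22.1 against hippocampus and 54.1, 30.1 and 16.4 against cortex, for Kcne4, Kcnn4 and Kcnmb1. At 24 h they were 53.5, 28.8 and 31.5 against hippocampus and 45.0, 25.9 and 21.4 against cortex. The part of the blood cell mix in these differences was not tested, and the marker lists that moved with LPS in blood are given in the report.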

How the results depend on the processing

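Most single genes and tiles kept their direction and call. Over 1115 values with 1 library left out 1009 did, and over 633 values under the other settings 581 did. Centring each library on its own mean changed the blood splits most, to 20, 19 and 17 higher and 22, 20 and 21 lower genes at 6, 12 and 24 h. The shares of all genes are not given for these centred splits. With centring, lower tiles in blood numbered 65, 36 and 61 at the 3 times, 0 genes were lower in hippocampus at 6 h, 7 were higher and 1 lower in hippocampus against cortex, and 17 were higher in hippocampus against blood. The centred 12 h interactions called 22 of 70 genes against hippocampus and 23 of 70 against cortex, where 47.9% and 49.6% of all genes were called. Single genes changed sign with centring. Kcnk6 was at -0.87, -1.28 and -0.95 points and Kcnn1 at -0.85, -0.80 and -0.61 at 6, 12 and 24 h, Kcnj4 at -0.0926 and -0.0435 at 12 and 24 h, Kcnma1 at -0.70 at 12 h and Kcna2 at -0.82 at 24 h.

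With only shared cytosines 1 gene was lower in blood at each time and 21 tiles were lower at 6 h, and Kcnj14 stood at 4.89 at 24 h. With 10 or more cytosines 2 genes were lower in blood at 12 h, 11 in hippocampus at 6 h and 2 in hippocampus against cortex. With that minimum called tiles were 21 higher and 3 lower in blood at 6 h, 18 and 1 at 12 h, 18 and 5 at 24 h, 1 lower in hippocampus at 6 h, 2 and 0 in hippocampus against cortex, 5 and 9 in hippocampus against blood, and 3 and 9 in cortex against blood, from fewer tiles tested. Without the limit on the mean, 0 genes were lower in hippocampus at 6 h, and 6 tiles were higher and 10 lower in hippocampus against cortex. The cause of these shifts was not tested.

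The replicate numbers of the titles were not used as pairs in the main fits. The correlation of same-numbered libraries' deviations lay between -0.22 and 0.29, and in no comparison did every pair exceed 0.1. These correlations cannot decide whether 1 mouse gave several tissues, since its tissues need not deviate alike. The labels do not say so either. The tissue and interaction fits treated every library as independent, and their p-values rest on that. With the number as a replicate block, the calls were 33 higher and 3 lower at 6 h in blood, 43 and 3 at 12 h, 34 and 3 at 24 h, 0 in hippocampus at 6 h, 2 and 1 in hippocampus against cortex, 8 and 28 in hippocampus against blood, and 10 and 25 in cortex against blood. Called tiles in blood under the block were 87 and 31, 89 and 17, and 84 and 23 at the 3 times.

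Leaving out 1 library at a time gave 30 to 44 higher and 2 to 6 lower genes in blood at 6 h, 34 to 53 and 3 to 5 at 12 h, and 31 to 41 and 2 to 7 at 24 h. The 6 lower came without LPS 6 h replicate 3 and the 7 lower without LPS 24 h replicate 2. In hippocampus 0 to 1 genes were lower at 6 h, whichever library was left out, and 0 to 5 higher at 12 h, the 5 without LPS 12 h replicate 2. Hippocampus against cortex gave 1 to 3 higher (1 without any of the 3 hippocampus libraries) and 0 to 1 lower genes (1 without cortex replicate 2, 3 or 4). Against blood, hippocampus gave 10 to 11 higher and 23 to 31 lower genes and cortex 10 to 13 and 22 to 29. Tiles ranged over 78 to 97 higher and 27 to 41 lower at 6 h, 82 to 100 and 16 to 22 at 12 h, 76 to 95 and 20 to 42 at 24 h, 6 to 14 and 10 to 19 for hippocampus against cortex, 46 to 55 and 68 to 74 for hippocampus against blood, and 41 to 49 and 64 to 72 for cortex against blood. With no read counts in the tables, what depth limits cannot be stated.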
